A study of Mus musculus with 8 samples.

Results

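The transcripts of the AP-1 and BATF transcription factors were examined in regulatory T (Treg) cells. They were the 9 genes with the symbols Fos, Fosb, Fosl2, Jun, Junb, Jund, Batf, Batf3 and Atf3, taken by symbol from the 52459 genes listed. All 9 were found, and 8 of them reached the mean of 10 normalized counts over the libraries that a gene needed to be tested. Batf3, with a mean of 9.50, did not.

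AP-1 is a dimer of basic leucine zipper (bZIP) proteins. FOS proteins do not form stable dimers with each other and bind DNA with a JUN protein. JUN, JUNB and JUND pair with FOS proteins, with each other and with BATF or ATF3. BATF and BATF3 lack the long activation domains of FOS, and the BATF-JUN dimer binds with IRF4 or IRF8 at composite sites of T cell genes. AP-1 also binds beside NFAT, which calcineurin moves into the nucleus when calcium enters the cell. Fos, Fosb, Junb and Atf3 are immediate early genes, which are switched on within minutes by receptor signals and by cell stress and switched off soon after. In Treg cells BATF is known for its part in the effector and tissue programme.

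Treg cells (CD4+CD25hi) were sorted from pooled spleens and lymph nodes of several healthy female C57BL/6 mice that were heterozygous for Foxp3-YFPcre and carried floxed Stim1 and Stim2. STIM1 and STIM2 sense an empty calcium store and open the ORAI channels of the cell membrane. Cells without YFP are labelled WT and cells with YFP are labelled Stim1/2-deficient (DKO, written in the labels as Stim1 fl/f with Stim2 fl/fll and Foxp3-YFPcre), so that both come from mice with the same floxed alleles and Cre acts only in cells that use the Foxp3-YFPcre X chromosome. Cells were sequenced without stimulation or after 16 h on plates coated with 1 µg/ml of antibodies to CD3 and CD28, with 2 libraries for each of the 4 groups, replicates 3 and 4 of unstimulated WT cells and replicates 1 and 2 of the others. A library stands for a pool of mice, and p-values measure the spread between these libraries, since the labels do not tie libraries to pools.

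The libraries held 11851853 to 16306540 reads on genes, with 1 read worth 0.759 to 1.48 normalized counts. In unstimulated cells the normalized counts of Stim1 were 1139 and 1377 with the WT label and 1538 and 1868 with the Stim1/2-deficient label. Those of Stim2 were 906 and 908 against 904 and 744. A count over a whole gene cannot show the loss of single exons. Libraries are therefore named by their labels. The paper reports loss of both transcripts by RT-PCR in Treg cells of male mice. In YFP-positive Treg cells of the heterozygous females it reports loss of calcium entry after store depletion. Unstimulated replicate 1 labelled Stim1/2-deficient stood apart. The 15 macrophage and myeloid markers summed to 11859 normalized counts there, to 1886 in replicate 2 of the same group and to 251 to 532 in the other 6 libraries. In each of these 6, 2 to 6 of the 15 markers were at 0 and the rest were detected. The 12 B cell markers summed to 16079 in that library and to 2676 to 7338 in the others, with 11 or 12 of the 12 detected in each. Ighm was the largest part of each sum, with 11092 there and 2147 to 6446 elsewhere. Each of the other B cell markers was higher in stimulated replicate 1 than in stimulated replicate 2 of the same genotype. Neutrophil markers reached 1161 there against 126 to 854 elsewhere, and CD8 T and NK cell markers 399 to 1849 in all. The 10 Treg identity markers summed to 53093 and 58323 in the unstimulated labelled libraries and to 75660 or more in the others. Member values without this library are given beside the unstimulated genotype differences and the responses of labelled cells. Medians or gene values without it are given beside the lists. In bulk RNA, fewer cells of a type and less RNA per cell cannot be told apart.

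The DNA just before the start sites of Fos, Jun and Batf is shown because these genes gave the 3 distinct patterns described further on, and because AP-1 factors and cyclic AMP response element (CRE) binding factors act at promoters of their own family. Each line holds the 250 bases before the RefSeq start on GRCm38.p6, 5′ to 3′ on the strand of the gene. Capitals mark the TATA box TATAAA, the core of the CRE (TGACG) and an AP-1-like site known from Jun (TGACATCA). The places are chr12:85473640-85473889 on the plus strand for Fos, chr4:95052223-95052472 on the minus strand for Jun and chr12:85686470-85686719 on the plus strand for Batf.
Fos: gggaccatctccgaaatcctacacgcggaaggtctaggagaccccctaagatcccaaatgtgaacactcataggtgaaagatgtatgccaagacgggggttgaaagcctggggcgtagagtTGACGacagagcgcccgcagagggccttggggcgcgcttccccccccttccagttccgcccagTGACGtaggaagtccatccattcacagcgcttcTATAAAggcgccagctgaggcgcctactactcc
Jun: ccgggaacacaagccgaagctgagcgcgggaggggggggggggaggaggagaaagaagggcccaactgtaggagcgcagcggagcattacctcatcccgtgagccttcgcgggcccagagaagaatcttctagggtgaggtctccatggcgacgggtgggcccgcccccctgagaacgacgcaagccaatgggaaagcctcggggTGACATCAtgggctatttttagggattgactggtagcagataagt
Batf: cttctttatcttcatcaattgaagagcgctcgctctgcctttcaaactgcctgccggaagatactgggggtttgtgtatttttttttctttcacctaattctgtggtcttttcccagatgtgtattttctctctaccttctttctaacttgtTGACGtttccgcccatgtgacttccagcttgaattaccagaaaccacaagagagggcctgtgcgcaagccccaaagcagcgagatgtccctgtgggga

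Counted back from the start site, TATAAA lies at -33 to -28 of Fos and TGACATCA at -45 to -38 of Jun. TGACG begins at -129 and -66 of Fos and at -98 of Batf. All 9 genes matched the promoter table, and TGACG on either strand was found in 5 of them, Fos, Fosb, Junb, Batf and Atf3, against 17.8% of 32851 promoter windows of the same length. This motif was chosen after the sequences were seen. The full AP-1 site TGANTCA was found in 0 of the 9 windows (6.75% of all windows) and the full CRE TGACGTCA in 0 (1.55%). The NFAT core GGAAA was found in 3, Jun, Batf and Batf3 (55.6% of all windows), on the opposite strand at -141 and -93 of Batf, where the second abuts the TGACG match. A match is a run of letters in this window and no measured site.

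Levels were compared between genes per kilobase of exon, with union exon lengths of GENCODE vM1. In unstimulated WT cells, Junb was the most abundant transcript, with 2462 ± 697 normalized counts per kb (SD, n = 2 here and below). Fosl2 followed with 1047 ± 51.4, Fos with 968 ± 39.1, Batf with 845 ± 108 and Jun with 763 ± 19.5, and each of these 4 overlapped its neighbour within 1 SD. Fosb had 463 ± 19.6 and Atf3 413 ± 44.7, which overlapped as well. Jund had 154 ± 24.6 and Batf3 8.5 ± 5.58 per kb, so that the BATF arm of the family rested on Batf.

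After stimulation of WT cells, the order was another. Batf led with 1343 ± 143 normalized counts per kb, followed without overlap by Junb with 492 ± 43.9 and Jun with 224 ± 39.0. Fosl2 had 147 ± 23.9 and Atf3 121 ± 24.4, which overlapped. Jund (35.9 ± 5.58), Batf3 (27.2 ± 15.8) and Fos (22.8 ± 11.8) could not be ordered beyond their spread, and Fosb was lowest with 8.10 per kb.

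In libraries labelled Stim1/2-deficient, Batf lay below Junb and Jun without stimulation and had no lead over them after it. Unstimulated, Junb had 2242 ± 847 normalized counts per kb, Jun 1334 ± 389.8 and Fos 1165 ± 386, while Batf had 202 ± 46.5. After stimulation, Jun had 529 ± 88.8, Junb 451 ± 84.5 and Batf 402 ± 118 per kb, which overlapped one after the other. Batf made up most of the BATF family per kb in every library. The BATF family held 11.8% and 12.1% of the summed level of the 9 transcripts in unstimulated WT libraries and 4.45% and 2.44% in labelled ones, and after stimulation 58.8% and 54.2% in WT against 27.6% and 17.5% in labelled libraries. The share of the JUN family was 27.6% and 34.7% in stimulated WT libraries and 51.1% and 62.8% in stimulated labelled libraries, so that the groups did not overlap. A share also rises when another part falls. The level of the JUN family was 696 and 806 per kb in stimulated WT and 912 and 1147 in stimulated labelled libraries.

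**Figure D1:**
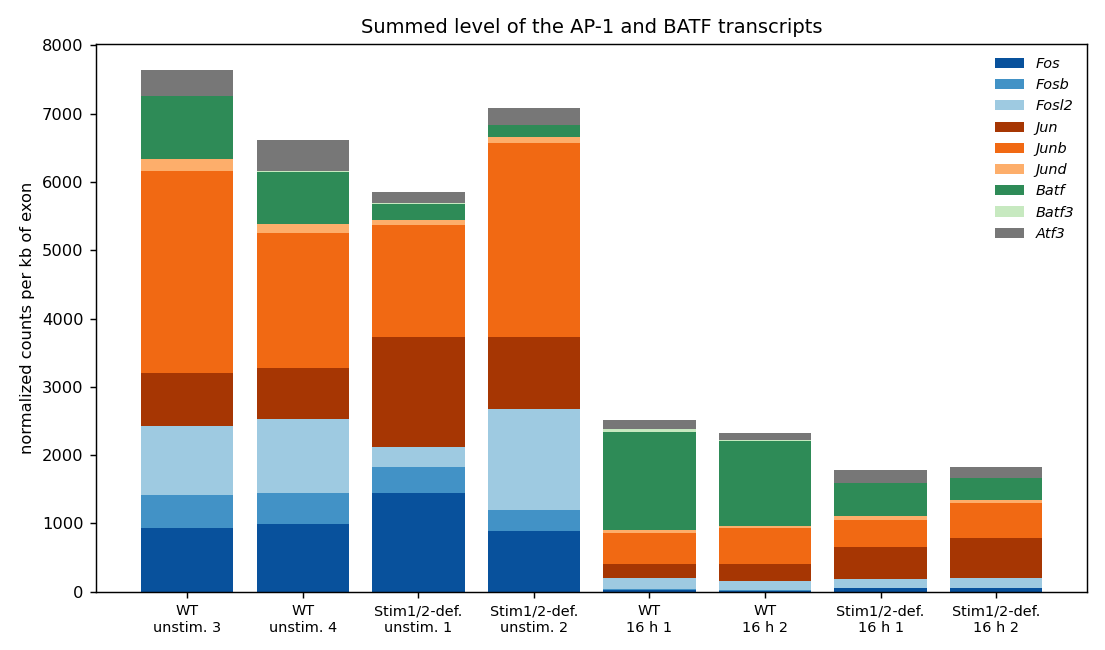
Stacked bars give the level of each of the 9 transcripts in normalized counts per kb of exon (y axis, from 0) in each of the 8 libraries (x axis), without error bars because a bar is 1 library. The sum was 5846 to 7638 in unstimulated and 1786 to 2519 in stimulated libraries, and the green Batf part was largest in the WT libraries after 16 h.

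Per kb, the summed level of the 3 FOS family transcripts was 2.63 and 3.29 times that of Batf in unstimulated WT libraries and 9.0 and 15.8 times in unstimulated labelled libraries. In stimulated WT libraries the ratio was 0.141 and 0.123, and in stimulated labelled libraries it was 0.396 and 0.624. The ratio of Jun to Batf was 0.842 and 0.974 against 6.85 and 6.25 unstimulated, and 0.136 and 0.202 against 0.960 and 1.85 stimulated. In both states these ratios of levels were higher in each labelled library than in either WT library. Batf, lower in the labelled libraries, is the denominator, so the ratios are no result apart from it. The FOS family itself overlapped between genotypes. It had 2427 and 2528 per kb in WT and 2116 and 2672 in labelled libraries unstimulated, and 203 and 153 against 192 and 199 stimulated.

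**Figure D2:**
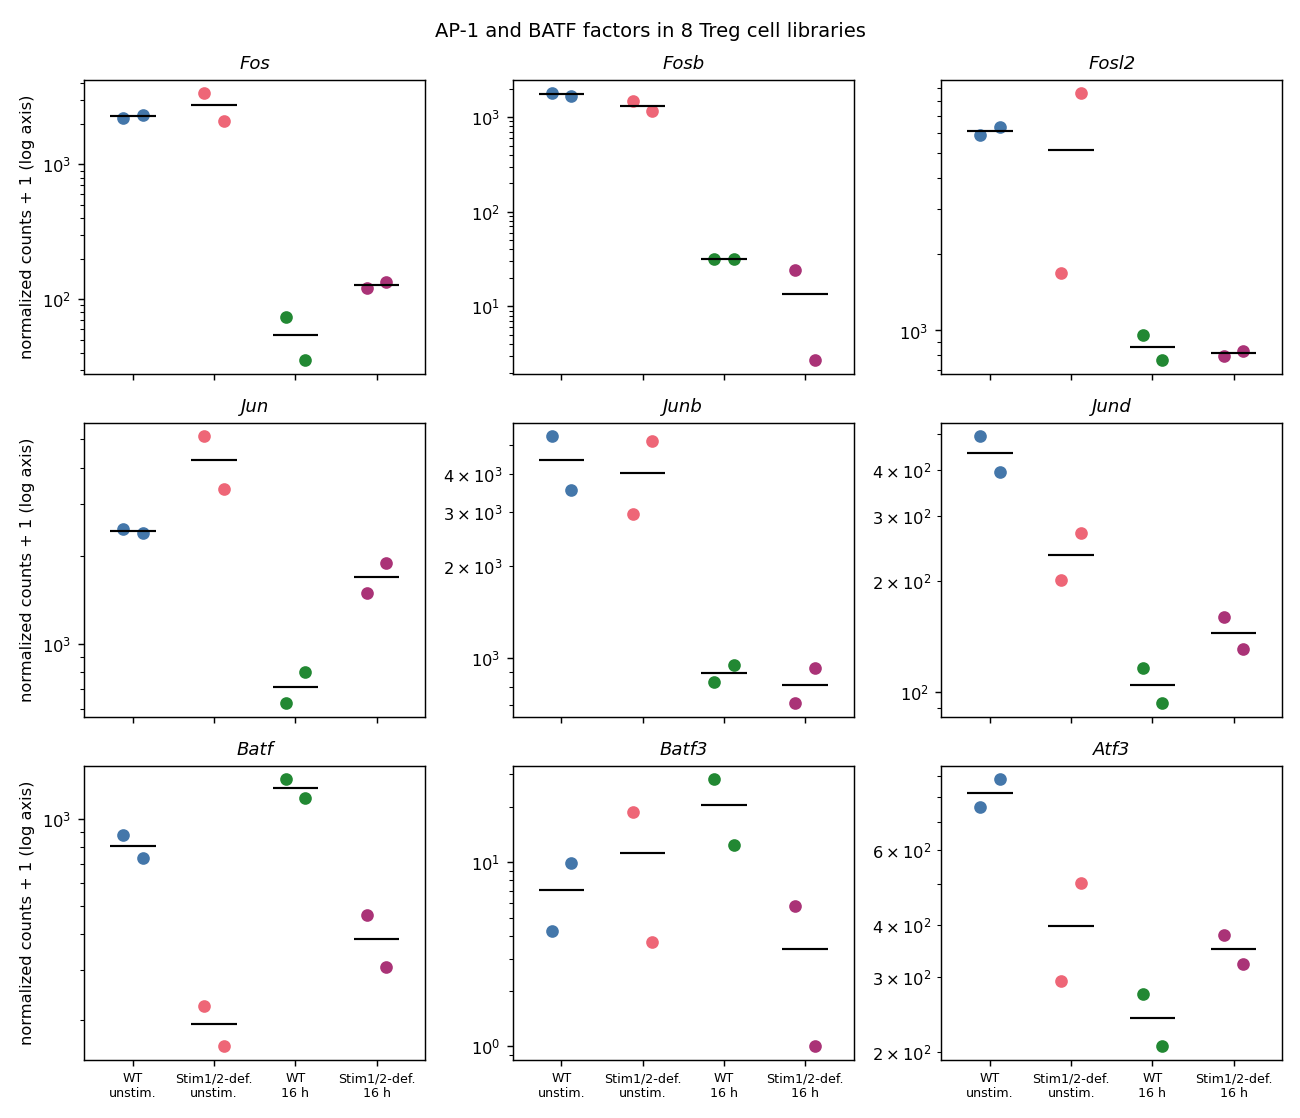
Each panel shows 1 gene, with normalized counts + 1 on a log axis (y) for the 4 groups (x), where points are libraries and the line is the mean of 2 libraries. Fos, Fosb, Fosl2, Jun, Junb and Jund were higher in each unstimulated library than in any stimulated one. Fosl2 had 1685 normalized counts in unstimulated labelled replicate 1 and 8612 in replicate 2. Batf was highest in stimulated WT cells and low with either stimulation state in labelled libraries.

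Batf was the member with a called genotype difference. A gene was called at a limma adjusted p under 0.05, after correction over all 15419 tested genes, and a change of more than 1.5-fold. Batf had normalized counts of 881 and 734 in unstimulated WT libraries, 224 and 162 in unstimulated labelled libraries, 1379 and 1186 in stimulated WT libraries and 464 and 305 in stimulated labelled libraries. The 4 groups were thus ordered without overlap, from unstimulated labelled through stimulated labelled and unstimulated WT to stimulated WT cells. The labelled libraries after 16 h with antibody remained below the WT libraries that had received none.

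In unstimulated cells, Batf was 4.21-fold lower in labelled than in WT libraries, on the log2 scale -2.07 with a standard error of 0.27 (limma adjusted p = 0.00593). The log2 fold change was -2.31 without labelled replicate 1 and -1.84 without labelled replicate 2. It was not called without WT replicate 3 (log2 fold change -1.94, limma adjusted p = 0.149) or without WT replicate 4 (-2.20, limma adjusted p = 0.0563), and was called in the 15 other fits, with adjusted p from 4.4e-09 to 0.0259.

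After stimulation Batf was 3.39-fold lower in the labelled libraries (log2 fold change -1.76, standard error 0.27, limma adjusted p = 0.0392). This call was less firm. It was kept in 9 of 18 other fits and lost in 9, with edgeR (adjusted p = 0.0570) among the latter, while the log2 fold change stayed between -2.07 and -1.46 and the adjusted p between 1.5e-06 and 0.362. It was lost without either WT library of either state and without labelled replicate 2 (log2 fold change -1.46).

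With stimulation Batf was higher in labelled libraries, by 1.97-fold (log2 fold change 0.98, standard error 0.27, limma adjusted p = 0.0241). The values of the WT libraries gave 1.59-fold (log2 fold change 0.67, standard error 0.27, limma adjusted p = 0.0965), which did not pass the threshold. The log2 fold change in labelled libraries was 1.21 without unstimulated labelled replicate 1. The call in labelled libraries was lost without unstimulated replicate 2 (log2 fold change 0.74) or stimulated replicate 1 (0.68). The genotype difference of Batf changed with stimulation by 0.31 on the log2 scale, with a 95% interval from -0.53 to 1.15 (limma adjusted p = 0.844). Unstimulated and stimulated libraries were on different sequencing lanes, and no group spent 16 h in culture without antibody. Antibody, 16 h in culture and lane therefore cannot be told apart here or in any comparison of the 2 states. Words such as rose, fell or response name the difference between these libraries only.

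Batf3, the partner of JUN that dendritic cells need, was close to its detection limit. It had 3 and 6 reads in unstimulated WT libraries, 17 and 2 in labelled ones, 35 and 15 in stimulated WT libraries, and 6 and 0 in labelled ones. In normalized counts these were 3.24 and 8.86, 17.8 and 2.67, 27.3 and 11.4, and 4.76 and 0. The stimulated WT libraries lay above the stimulated labelled libraries, and the 17 reads fell in the library with the macrophage markers, whose part in that value was not tested. In a fit of all 30998 genes with a value above 0, the log2 fold change of Batf3 in stimulated cells was -2.96 with a standard error of 1.14 (limma adjusted p = 0.429).

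**Figure D3:**
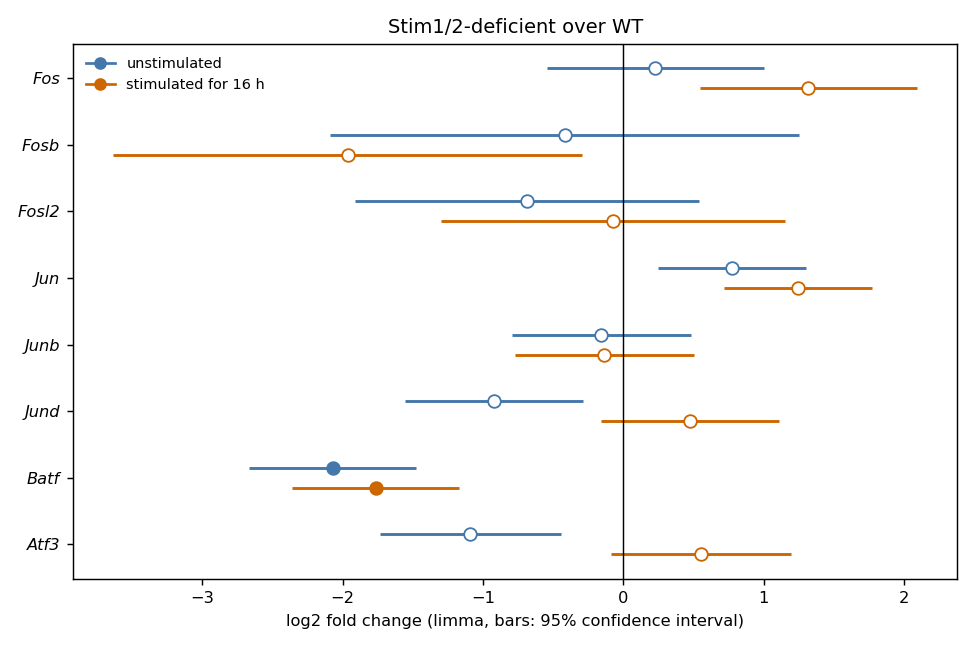
Points give the log2 fold change of libraries labelled Stim1/2-deficient over WT (x axis) for the 8 tested members (y axis), in unstimulated (blue) and stimulated cells (orange), with 95% confidence intervals of the limma fit as bars and filled points for called genes. Batf alone has filled points, Jun lies right of 0 in both states, and Atf3 and Jund lie on opposite sides of 0 in the 2 states.

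The FOS family was not called between genotypes. Fos had normalized counts of 2211 and 2341 in unstimulated WT libraries and 3383 and 2098 in labelled ones, and after stimulation 73.3 and 34.2 in WT against 119.9 and 133 in labelled libraries. The unstimulated genotypes overlapped, and the stimulated labelled libraries lay above the WT libraries. The log2 fold changes were 0.23 (95% interval -0.55 to 1.00, limma adjusted p = 0.752) and 1.32 (standard error 0.35, limma adjusted p = 0.129), the latter called by DESeq2 on recovered reads (log2 fold change 1.24, adjusted p = 0.0161). The unstimulated value became -0.12 without labelled replicate 1.

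Fosb, an immediate early gene like Fos, had normalized counts of 1789 and 1685 in unstimulated WT libraries, 1462 and 1158 in labelled ones, 30.4 in each stimulated WT library, and 23.0 and 1.69 in stimulated labelled libraries. The last value was 2 reads. Fosb in labelled libraries was below WT in both states, with log2 fold changes of -0.42 (95% interval -2.09 to 1.25, limma adjusted p = 0.797; -0.58 if labelled replicate 1 is left out) and -1.96 (95% interval -3.64 to -0.29, limma adjusted p = 0.274). The stimulated value was -0.39 without labelled replicate 2 and -3.54 without labelled replicate 1, where it was called (limma adjusted p = 0.00186), so that it rested on the library with 2 reads.

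Fosl2, which encodes FRA-2, had normalized counts of 5915 and 6340.1 in unstimulated WT libraries, 1685 and 8612 in labelled ones, 959 and 762 in stimulated WT and 791 and 832 in stimulated labelled libraries. The unstimulated labelled libraries differed 5.11-fold from each other and lay on either side of WT. The lower value came from replicate 1, the library with the macrophage and B cell markers, and the part of those markers was not tested. Without that library the log2 fold change in unstimulated cells was 0.49, and without replicate 2 it was -1.86. With both it was -0.68 (95% interval -1.91 to 0.54, limma adjusted p = 0.511). In stimulated cells it was -0.08 (95% interval -1.30 to 1.15, limma adjusted p = 0.971).

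In the JUN family, 3 different patterns were seen. Jun, the strongest activator of the family, had normalized counts of 2477 and 2389 in unstimulated WT libraries and 5133 and 3375 in labelled ones, and after stimulation 625 and 801 in WT against 1487 and 1887 in labelled libraries. Its 4 groups did not overlap, in the order stimulated WT, stimulated labelled, unstimulated WT and unstimulated labelled, with the labelled libraries on top in each state. The genotype difference was 0.77 on the log2 scale in unstimulated cells (1.71-fold, standard error 0.24, limma adjusted p = 0.0926) and 1.24 in stimulated cells (2.36-fold, standard error 0.24, limma adjusted p = 0.0616). Neither was called in the fit of all tested genes.

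DESeq2 called Jun in both states, with log2 fold changes of 0.82 (adjusted p = 0.0266) and 1.24 (adjusted p = 4.0e-04). In the 18 other fits of the stimulated comparison Jun was called in 6 and remained higher in labelled libraries in all of them, from 1.06 to 1.42 with each library left out. In unstimulated cells the log2 fold change was 0.47 without labelled replicate 1 and 1.08 without labelled replicate 2. The latter rests on the library with the macrophage and B cell markers alone. Jun made up 19.9% and 26.2% of the JUN family per kb in unstimulated WT libraries and 48.4% and 26.5% in labelled ones, and 28.1% and 31.2% against 51.1% and 51.6% after stimulation.

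Junb had normalized counts of 5339 and 3559 in unstimulated WT libraries, 2969.6 and 5134 in labelled ones, 832 and 945 in stimulated WT and 707 and 923 in stimulated labelled libraries. WT and labelled libraries overlapped with and without stimulation. Its log2 fold changes were -0.16 (95% interval -0.80 to 0.48, limma adjusted p = 0.797) and -0.13 (95% interval -0.77 to 0.50, limma adjusted p = 0.887). The first became 0.0041 with libraries rescaled to equal upper quartiles and 0.24 without labelled replicate 1, so that no direction is given.

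Jund, the JUN gene that resting cells commonly keep on, had normalized counts of 493 and 393 in unstimulated WT libraries, 200.3 and 268 in labelled ones, 115 and 91.9 in stimulated WT and 158 and 129 in stimulated labelled libraries. Labelled libraries were below WT without stimulation and above WT with it. The log2 fold changes were -0.92 (standard error 0.29, limma adjusted p = 0.0966) and 0.47 (95% interval -0.16 to 1.11, limma adjusted p = 0.519). The first was -0.71 without labelled replicate 1. The antisense genes that GENCODE vM1 places over Jun and Jund are BC042782, for which no value was used here, and Gm11175, which was listed at 0 in all 8 libraries.

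Atf3, a stress-induced bZIP gene whose product often represses, had the same order of genotypes within each state as Jund. It had normalized counts of 756 and 882 in unstimulated WT libraries, 294 and 499.5 in labelled ones, 274 and 205 in stimulated WT and 376 and 321 in stimulated labelled libraries. Labelled libraries thus lay below WT when unstimulated and above WT when stimulated. The log2 fold changes were -1.09 (2.13-fold lower, standard error 0.29, limma adjusted p = 0.0621) and 0.55 (95% interval -0.09 to 1.19, limma adjusted p = 0.444). The first was called by DESeq2 (adjusted p = 0.0204) and among genes with a mean of at least 100 (limma adjusted p = 0.0461). It was -0.71 without labelled replicate 1 and -1.47 without labelled replicate 2. The latter rests on the library with the macrophage and B cell markers alone.

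Counted together, 1 of the 8 tested members was called lower and 0 higher in unstimulated labelled libraries, and the shares of all tested genes were 3.35% lower and 1.38% higher. In stimulated cells 1 was lower and 0 higher, against 0.11% and 0.162% of all tested genes. At an unadjusted p under 0.05, 1 member was higher and 3 were lower unstimulated, beside 1485 and 1910 of all 15419 tested genes. Stimulated, 2 members were higher and 2 lower, beside 980 and 1138 of all tested genes. DESeq2 called 1 member higher and 2 lower unstimulated (all tested genes: 511 and 810), and 2 higher and 1 lower stimulated (238 and 287). With edgeR, 0 members were higher and 1 lower unstimulated (all tested genes: 131 and 353), and 0 in either direction stimulated (1 and 0). Both labelled libraries lay below both WT libraries for 4 members (27.1% of all tested genes) and above for 1 (26.5%) in unstimulated cells, and below for 2 (23.1%) and above for 4 (24.3%) in stimulated cells. The median log2 fold change of the 8 members was -0.55 unstimulated and 0.20 stimulated, beside -0.01 and 0.02 over all tested genes.

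The change of the genotype difference between the 2 states was tested as an interaction term. It was called for 0 of the 8 members by limma, edgeR and DESeq2, where limma called 0% of all tested genes in either direction and DESeq2 called 34 higher and 13 lower. At an unadjusted p under 0.05, 2 members were higher and 0 lower, beside 710 and 547 of all tested genes. Atf3 had a difference of 1.64 on the log2 scale (95% interval 0.73 to 2.55, limma adjusted p = 0.556), and Jund had 1.40 (95% interval 0.50 to 2.30, limma adjusted p = 0.556). The adjusted p of Atf3 by DESeq2 was 0.105. The pattern that both labelled libraries lay below WT unstimulated and above WT stimulated was seen in 2 of 8 members and in 2.77% of all tested genes, and the opposite pattern in 0 members and 2.6%.

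Stimulation for 16 h was accompanied by a fall of most members in both genotypes. In WT cells, 7 of the 8 tested members were called lower and 0 higher, where 13.1% of all tested genes were called lower and 10.2% higher. In labelled cells, 5 were lower and 1, Batf, was higher, where the shares of all genes were 12% and 13%. The stimulated libraries lay below the unstimulated ones for 7 members in WT (36% of all tested genes) and 6 in labelled cells (30.6%), and above for 1 in each (35% and 30.8%). The unstimulated WT and labelled libraries also serve the genotype comparison, so these values share libraries with those above.

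**Figure D4:**
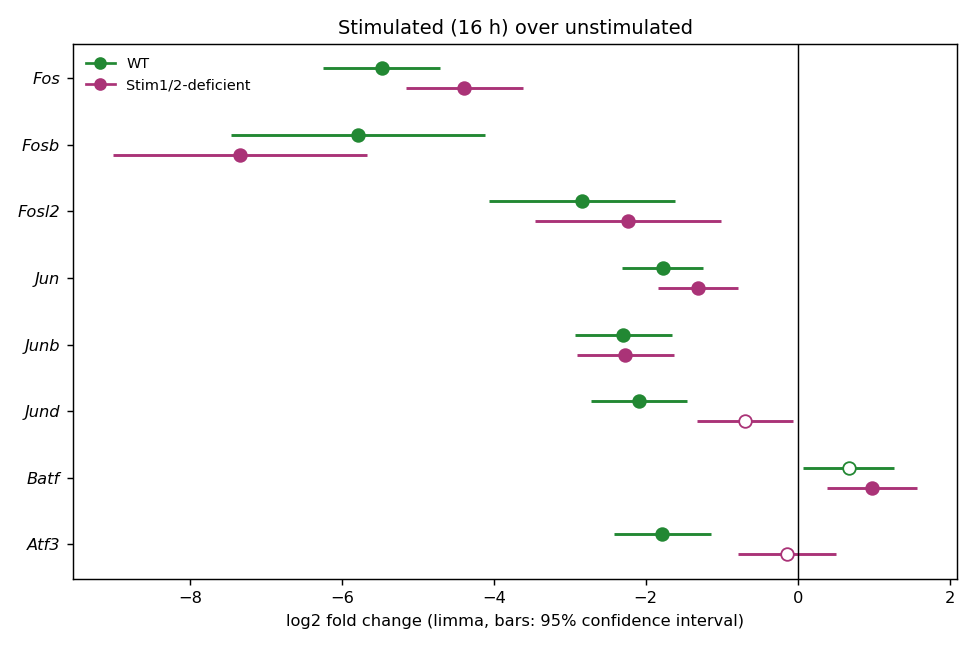
Points give the log2 fold change of stimulated (16 h) over unstimulated cells (x axis) for the 8 tested members (y axis) in WT (green) and labelled libraries (purple), with 95% confidence intervals of the limma fit as bars and filled points for called genes. Fos and Fosb have the lowest values in both genotypes and Batf alone lies right of 0.

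The fall was steepest for Fosb and Fos. Fosb was 55.4-fold lower in stimulated WT cells (log2 fold change -5.79, limma adjusted p = 0.00127) and 162-fold lower in stimulated labelled cells (-7.34, limma adjusted p = 3.7e-04), where 1 library held 2 reads and the value without that library was -5.76. Fos was 44.5-fold lower in WT (-5.48, limma adjusted p = 7.1e-05) and 20.9-fold lower in labelled cells (-4.39, limma adjusted p = 1.6e-04). Only 0.11% and 0.765% of all tested genes had a log2 fold change as low as that of Fos in WT and labelled cells. Fosl2 was 7.16-fold lower in WT (-2.84, limma adjusted p = 0.00643) and 4.69-fold lower in labelled cells (-2.23, limma adjusted p = 0.0158), the latter being -3.41 without unstimulated labelled replicate 1 and -1.05 without replicate 2. The call of Fosl2 was lost in WT without unstimulated replicate 4 (-2.79) or stimulated replicate 2 (-2.67) and in labelled cells without stimulated replicate 1 (-2.19) or 2 (-2.27).

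The falls of the JUN family were all smaller than those of Fos and Fosb. Junb was 4.91-fold and 4.83-fold lower in WT and labelled cells (log2 fold changes -2.30 and -2.27, limma adjusted p = 0.00104 and 8.6e-04). Jun was 3.43-fold and 2.48-fold lower (-1.78 and -1.31, limma adjusted p = 0.00143 and 0.00413). Jund was 4.26-fold lower in WT (-2.09, limma adjusted p = 0.00163), whereas its value in labelled cells was -0.69 (95% interval -1.33 to -0.06, limma adjusted p = 0.101). Atf3 was 3.44-fold lower in WT (-1.78, limma adjusted p = 0.00304), and its value in labelled cells was -0.14 (95% interval -0.78 to 0.50, limma adjusted p = 0.752), or 0.25 with libraries rescaled to equal totals. Without unstimulated labelled replicate 1, the labelled response was -4.04 for Fos, -7.17 for Fosb, -2.67 for Junb, -1.01 for Jun, -0.91 for Jund and -0.52 for Atf3, with calls for the same 4 of these 6 genes, Fos, Fosb, Junb and Jun. The median over the 8 members was -2.19 in WT and -1.77 in labelled cells, beside 0.01 and -0.03 over all tested genes.

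Total normalized counts were lower in stimulated libraries, and rescaling to equal totals moved the median of all genes by 0.51 in WT and 0.38 in labelled cells. All-gene calls then changed from 1580 higher and 2013 lower to 4261 higher and 975 lower in WT, and from 1997 and 1855 to 3792 and 1077 in labelled cells. The members called lower stayed at 7 and 5, and Batf in WT became called higher (log2 fold change 1.19, limma adjusted p = 0.00892).

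Freshly sorted cells carry transcripts of handling stress, so 25 further immediate early and sorting-stress genes were read beside the members. In stimulated WT cells, 16 of them fell and 3 rose, beside 13.1% and 10.2% of all tested genes. In labelled cells 16 fell and 2 rose, beside 12% and 13% of all tested genes. Among those that fell in WT were the heat shock gene Hspa1b (58.6-fold), Klf4 (54.9-fold) and the heat shock gene Hspa1a, which had 289 and 359 normalized counts without stimulation and was at 0 in both stimulated WT libraries, and those that rose were Egr2 (5.19-fold), Myc (4.56-fold) and Egr3 (1.92-fold), of which Egr2 (3.17-fold) and Myc (3.98-fold) also rose in labelled cells. Between genotypes 0 of the 25 were called in either state by limma, with medians of 0.10 and 0.11 on the log2 scale. Of all tested genes, 1.38% were called higher and 3.35% lower unstimulated, and 0.162% and 0.11% stimulated. Without unstimulated labelled replicate 1, the median log2 fold change of the list between unstimulated genotypes was 0.05. That of the labelled response was -1.75, beside -1.48 with all libraries. The summed level of the list was 63550 to 92025 normalized counts in unstimulated and 33851 to 37211 in stimulated libraries. The parts of handling and of 16 h in culture in the fall of the members were not tested.

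The partners of the members at composite sites were Irf4, Irf8 and the NFAT genes. Irf4, which BATF-JUN dimers recruit, had normalized counts of 3543 and 3498 in unstimulated WT libraries, 862 and 1029.7 in labelled ones, 12882 and 11469 in stimulated WT and 13241 and 6722 in stimulated labelled libraries. It was 3.73-fold lower in unstimulated labelled cells (log2 fold change -1.90, limma adjusted p = 0.00880), as Batf was. After stimulation the genotypes overlapped (-0.37, limma adjusted p = 0.617), with Irf4 higher than before in labelled cells (log2 fold change 3.32, limma adjusted p = 1.9e-04) and 3.45-fold higher in WT (limma adjusted p = 0.00255). Irf8 rose 10.4-fold in WT and 6.87-fold in labelled cells (limma adjusted p = 4.0e-04 and 6.7e-04), and its genotype values were 0.30 and -0.31 (limma adjusted p = 0.646 and 0.745).

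Of the NFAT genes, Nfatc1 was 1.74-fold lower in unstimulated labelled cells (log2 fold change -0.80, limma adjusted p = 0.0480), and its value was -0.50 after stimulation (limma adjusted p = 0.282). Nfatc2 and Nfatc3 had genotype values of -0.08 to 0.08 on the log2 scale. Nfatc3 fell with stimulation by 1.82-fold in WT and 1.95-fold in labelled cells. Without unstimulated labelled replicate 1 the unstimulated genotype value of Irf4 was -1.77 (limma adjusted p = 0.0173) and that of Nfatc1 was -0.81 and not called (limma adjusted p = 0.0601), and in labelled cells the responses were 3.19 for Irf4, 3.30 for Irf8 and -1.11 for Nfatc3, with Nfatc2 also called lower (-0.64).

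Among 19 other AP-1 and bZIP factors, 18 were tested. In unstimulated labelled cells 2 rose, the repressor Bach2 (1.78-fold) and the oxidative stress factor Nfe2l2 (1.72-fold), beside 1.38% of all tested genes. Another 2 fell, Maf (3.33-fold), a factor of effector Treg cells, and Atf6 (1.82-fold), a sensor of the endoplasmic reticulum, beside 3.35%. In stimulated cells 0 were called by limma, where few genes were called at all (0.162% higher and 0.11% lower). With stimulation 4 of the 18 were lower in WT, among them the small MAF genes Maff (9.33-fold) and Mafk (3.04-fold) and Atf4 (2.41-fold). Atf7 was higher (1.65-fold), beside 13.1% lower and 10.2% higher of all tested genes. In labelled cells 2 were lower with stimulation, Mafk (2.39-fold) and Maff (limma adjusted p = 0.0145), beside 12% of all tested genes. Without unstimulated labelled replicate 1, Nfe2l2 lost its call in unstimulated labelled cells (log2 fold change 0.81). The median log2 fold change of the 18 there was 0.03, beside -0.31 with all libraries. That of the labelled response was -0.11, beside 0.01 with all libraries.

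Of 26 genes on the MAP kinase routes that lead to AP-1, 2 fell and 1 rose in unstimulated labelled cells, beside 3.35% and 1.38% of all tested genes. Map2k3, the kinase that activates p38, fell 2.49-fold, Malt1 fell 1.75-fold and Prkcq, which couples the T cell receptor to NF-κB and AP-1, rose 1.92-fold. In stimulated cells 0 were called by limma, where few genes were called at all (0.162% higher and 0.11% lower). With stimulation 11 of the 26 were lower and 0 higher in WT, beside 13.1% and 10.2% of all tested genes. Among the 11 were Map2k6 (6.59-fold) and Bcl10 (3.52-fold). In labelled cells 8 were lower with stimulation, among them Map2k6 (4.65-fold) and Bcl10 (2.17-fold), beside 12% of all tested genes. Srf, the factor that drives Fos, was higher (1.72-fold), beside 13% of all tested genes. Without unstimulated labelled replicate 1, Map2k3 and Malt1 lost their calls in unstimulated labelled cells. The median log2 fold change of the list there was 0.06, beside -0.18 with all libraries. That of the labelled response was -0.43, beside -0.31 with all libraries.

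A list of 20 effector Treg genes linked to BATF is no independent evidence, since the study names most of them from these libraries. In unstimulated labelled libraries 20 of 20 genes were lower, with a median log2 fold change of -2.62. Of the 20, 17 were called lower and 0 higher, beside 3.35% and 1.38% of all tested genes. The largest falls were those of Klrg1 (33.4-fold), the IL-33 receptor gene Il1rl1 (20.3-fold) and Il10 (16.7-fold). After stimulation 3 were called lower, Itgae (6.67-fold), Il10 (5.05-fold) and Tnfrsf9 (2.56-fold), with a median of -1.36 over the list, beside 0.11% of all tested genes called lower. With stimulation 8 of the 20 were higher in labelled cells, among them Tnfrsf9 (7.34-fold), Tnfrsf4 (6.58-fold) and Ccr8 (5.61-fold), and 1 was lower, Rora (5.81-fold). The shares of all tested genes were 13% and 12%. In WT 2 were higher, Tnfrsf9 (2.22-fold) and Tnfrsf4 (2.16-fold), and 4 lower, led by Rora (14.2-fold), beside 10.2% and 13.1% of all tested genes. Without unstimulated labelled replicate 1, the median log2 fold change of the list was -2.82 in unstimulated labelled cells. That of the labelled response was 0.97, beside 0.32 with all libraries.

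The genes whose log2 values over the 8 libraries were most like those of Batf were Fbxw8, with a Pearson's r of 0.993, the mitotic gene Birc5 (0.985) and Tnfrsf8 (0.984), which encodes CD30. Among those most like Fos were Pan2 (0.990) and Zrsr1 (0.988), and for Jun they were Rasgrp1 (0.987), which activates RAS in T cells, Tet1 (0.984) and AC158355.1 (0.984). Of 15411 genes compared, 856 had an r above 0.9 with Fos, 420 with Jun and 295 with Batf. The libraries share lanes and groups, and these values are a description of 8 points in 4 groups.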

How the data were processed

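The deposited values are normalized counts, a signal in which read counts per gene had been divided by a library's size factor, the authors giving 2 decimals. The methods name Bowtie, HTSeq and DESeq2 on NCBIM37, whereas the submitters' processing notes name STAR 2.7, DESeq2 and mm10. Of the listed symbols, 54.9% are in GENCODE vM1 (NCBIM37) and 66.9% in RefSeq (GRCm38.p6), and the build behind the counts is not settled. Exon lengths and antisense genes are from GENCODE vM1 and start sites from RefSeq, and may differ from the annotation used in counting. Whether counting used strand is not given in the sources used here. All values (100%) were whole reads within 5% of a read. Depth limits precision at low counts.

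The log2 of value plus a pseudocount of 1 was fitted with limma 3.58.1 (lmFit and trended eBayes, R 4.3.3) wherever a gene averaged 10 or more, in 1 model of the 4 groups, 2-sided, with Benjamini-Hochberg adjustment over all tested genes, and fold changes are on that scale. The alternatives were pseudocounts of 0.1 and 5, other filters (none, a mean of 100), rescaled libraries, edgeR 4.0.16 and DESeq2 1.42.0 on recovered reads, fits of 4 libraries, a replicate block, a 2-fold threshold and each library left out. Reading the gene lists without unstimulated labelled replicate 1 was added after seeing the data. The scripts were tested on simulated counts. Named are all members, up to 3 called genes per list, direction and comparison, the composite-site partners and the 3 genes most like Batf, Fos and Jun. Of the genes this rule names, 2 are not reported here. Members and lists were chosen with earlier results of these data known. Sequences are from RefSeq (GRCm38.p6).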

Additional observations from a re-analysis of the deposited data

Results flagged for a closer look

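Atf3 and Jund were each below WT in both unstimulated labelled libraries and above WT in both stimulated labelled libraries, so that the genotype order was opposite in the 2 states. The difference of the genotype effects was 1.64 on the log2 scale for Atf3 and 1.40 for Jund, and neither passed the adjusted threshold (limma adjusted p = 0.556 for both).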

How the results depend on the processing

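Replicate numbers are shared by both genotypes in stimulated cells and by both states in labelled cells. The deviations of same-numbered libraries correlated across genes with r = 0.17 and 0.26, and with 2 pairs each the libraries share only a number. In fits of the 4 libraries of a comparison, the replicate block moved the members called in stimulated labelled cells from 0 in either direction to 1 higher (Jun) and 1 lower (Batf), and all genes from 1 higher and 0 lower to 191 and 202. In the response of labelled cells it moved the members from 0 higher and 4 lower to 1 and 5, and all genes from 880 and 872 to 1870 and 2224. The model of 8 libraries gave 25 and 17 in stimulated cells. With 8 libraries, all-gene calls in stimulated cells were 238 and 287 with DESeq2 and 1 and 0 with edgeR. In unstimulated cells they were 213 higher and 517 lower, or 241 and 353 with equal totals, 286 and 332 with equal upper quartiles, 511 and 810 with DESeq2, 131 and 353 with edgeR, and 83 and 255 with the 4 libraries alone. In the response of labelled cells the block left 1 member higher and 5 lower.

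Of the members called lower unstimulated (1), there were 2 where genes averaged 100 or more and 2 with DESeq2, which also called 1 higher. Among the 9147 genes that averaged 100 or more, 182 were called higher and 531 lower. In stimulated cells the lower count of 1 became 0 with a pseudocount of 0.1, with every gene above 0, with edgeR and with the 4 libraries alone. All-gene calls were then 4 higher and 4 lower with a pseudocount of 0.1, and 1 and 0 of 30998 with every gene above 0. The higher count of 0 became 1 where genes averaged 100 or more and 2 with DESeq2. Of the genes that averaged 100 or more, 49 were higher and 33 lower. The higher count of 0 in the WT response became 1 with equal totals and with the 4 libraries alone. The higher count of 1 in the labelled response became 0 with the 4 libraries alone and at 2-fold. All-gene calls were 2319 higher and 2746 lower in the WT response with the 4 libraries alone. In the labelled response they were 1461 and 1439 at 2-fold. Members called with a library left out are not counted in this paragraph, because 1 library then stands for a group. Without unstimulated labelled replicate 2, the interaction values were 1.79 for Fosl2 and 2.02 for Atf3. The library with the macrophage and B cell markers is then the only one of its group. Without replicate 1 instead, the values were -0.57 for Fosl2 and 1.26 for Atf3.

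Directions changed for these values on the log2 scale. In unstimulated cells Junb became 0.0041 with equal upper quartiles and 0.13 without WT replicate 3. With single libraries left out, the range was -0.55 to 0.24 for Junb, -0.12 to 0.57 for Fos and -1.86 to 0.49 for Fosl2. In stimulated cells the ranges were -0.24 to 0.0906 for Fosl2 and -0.33 to 0.0575 for Junb. In the labelled response Atf3 became 0.25 with equal totals, and -0.52 to 0.24 with libraries left out. In the interaction Junb became -0.11 with equal totals, -0.13 with equal upper quartiles and -0.0052 with DESeq2, and the ranges were -0.37 to 0.42 for Junb, -0.57 to 1.79 for Fosl2 and -3.13 to 0.0311 for Fosb. The cause was not tested. With 1 library left in a group, it is assumed to vary like the other groups. The depth of Batf3, 0 to 35 reads, shows no difference short of several fold.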
